A study of Drosophila melanogaster with 2 samples.

Results

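Peaks at single promoters of protein-coding genes made up 1774 of the 4899 nuclear peaks that chromatin immunoprecipitation sequencing (ChIP-seq) of Unc-4 gave in the pooled list of both replicates. A single promoter was a protein-coding gene whose annotated transcript starts all lay within 1000 bp and which had no start of an opposite-strand coding gene within 500 bp. A peak was a member when its summit lay within 250 bp of a start of such a gene. Of 13968 coding genes on the nuclear chromosomes, 8789 had a single promoter, 3878 a divergent promoter and 1301 alternative promoters. Of the 8789 single-promoter genes, 1556 (17.7%) had a member peak and 7233 had none, and the results below set these genes against each other.

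The samples were whole Drosophila melanogaster embryos of 6 to 18 h from transgenic flies of the strain unc-4-GFP, which express an unc-4-eGFP fusion protein, with 2 biological replicates in 1 group. The descriptions give an antibody against GFP for the precipitation, although the antibody field reads unc-4, and the chromatin of both libraries was sonicated to a labelled range of 200 to 800. The sequence that drives the transgene is not given in the labels, and an embryo holds many cell types, so a peak cannot be assigned to one of them. Controls named in the labels were not analysed here, and no expression data were used, so whether a gene without a peak was transcribed in these embryos is not known. Read depth is unknown, and the signal of a peak is the authors' own value on a scale that was not stated, comparable only within a list. Genes and peaks are not replicates and 1 group allows no test over samples: values are therefore given for the pooled list and for each replicate's list, and the 95% intervals (Wilson for shares, Newcombe for differences) cover counting error only.

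Unc-4 is a paired-type homeodomain transcription factor known from the choice of identity in subsets of neurons, and homeodomains typically recognise sites with a TAAT core. A promoter is the stretch around a transcript start where RNA polymerase II is assembled. In Drosophila, promoters of genes used in most cells often carry the DNA replication-related element (DRE), whose consensus TATCGATA is bound by the factor DREF and whose core CGATA is also bound by the insulator protein BEAF-32, or Ohler motif 1, bound by M1BP. Promoters of genes switched on in 1 tissue or stage more often carry a TATA box or an Initiator. TATCGATA reads the same on both strands and holds the hexamer TATCGA in both orientations, so that each octamer counts as 2 hexamers.

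The promoter sequences below give examples of the DRE, the motif that differed most among those searched between genes with and without a peak. The stretches were picked by signal and by the presence or absence of TATCGATA, so they do not show how often it occurred. Each line gives the 120 bases before the 5′-most annotated start on the gene's own strand, 5′ to 3′, from RefSeq Release 6 plus ISO1 MT (dm6). Capitals mark TATCGA or its reverse complement TCGATA. A selection of the named genes is shown, all with a stretch free of annotated exons. The first 5 are, in order of signal, genes of this selection whose stretch itself holds a TATCGATA within 50 bp of the summit, which leaves out genes of higher signal such as Creld and Nrg.
CG6325 (3R:10407286-10407405, minus strand): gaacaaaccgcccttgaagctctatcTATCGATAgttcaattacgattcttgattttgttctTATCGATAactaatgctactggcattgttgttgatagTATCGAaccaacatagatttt
Scsalpha1 (3L:3814091-3814210, plus strand): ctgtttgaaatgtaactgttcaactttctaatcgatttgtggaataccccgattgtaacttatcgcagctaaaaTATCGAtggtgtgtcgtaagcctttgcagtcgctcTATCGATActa
Hsp110 (3L:14036899-14037018, plus strand): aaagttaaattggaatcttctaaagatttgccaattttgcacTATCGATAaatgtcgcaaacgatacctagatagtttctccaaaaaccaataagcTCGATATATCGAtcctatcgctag
PolA1 (3R:21671751-21671870, minus strand): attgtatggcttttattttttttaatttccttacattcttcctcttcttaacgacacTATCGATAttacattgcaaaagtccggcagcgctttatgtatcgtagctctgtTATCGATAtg
eIF3f1 (3R:4714183-4714302, minus strand): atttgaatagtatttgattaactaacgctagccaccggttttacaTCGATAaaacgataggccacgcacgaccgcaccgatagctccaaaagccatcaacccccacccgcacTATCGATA
CG6325 held 2 octamers in this stretch and PolA1, the catalytic subunit of DNA polymerase alpha, also 2. Scsalpha1 (succinyl-coenzyme A synthetase), Hsp110 (a chaperone) and eIF3f1 (a translation initiation factor subunit) held 1 each. The next 3 are among the genes of highest signal without a TATCGATA, and still carry the hexamer.
mtSSB (3R:16205251-16205370, minus strand): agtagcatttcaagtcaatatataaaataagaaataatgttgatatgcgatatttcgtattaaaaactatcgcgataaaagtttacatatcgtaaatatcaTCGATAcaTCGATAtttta
CG4502 (2L:7204265-7204384, minus strand): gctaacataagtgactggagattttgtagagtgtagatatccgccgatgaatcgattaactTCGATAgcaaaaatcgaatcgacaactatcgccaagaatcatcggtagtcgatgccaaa
CG11857 (3R:25258778-25258897, plus strand): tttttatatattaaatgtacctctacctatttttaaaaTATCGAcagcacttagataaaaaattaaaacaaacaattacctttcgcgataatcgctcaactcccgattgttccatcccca
Within the 120 bases shown, the hexamer occurred 2 times before mtSSB and 1 time each before CG4502 and CG11857. The last 2 are genes with 2 octamers in the stretch and no peak in the pooled list.
AlkB (X:15859488-15859607, minus strand): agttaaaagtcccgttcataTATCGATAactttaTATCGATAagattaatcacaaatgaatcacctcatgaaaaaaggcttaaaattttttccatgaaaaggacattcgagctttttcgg
CG10324 (3R:16647005-16647124, minus strand): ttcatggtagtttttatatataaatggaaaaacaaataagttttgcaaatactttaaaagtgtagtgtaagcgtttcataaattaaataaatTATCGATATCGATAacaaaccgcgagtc
AlkB (X) and CG10324 (3R) had ranked peaks below the authors' threshold, with signals of 49.8 and 18.8 at AlkB and 20.2 and 29.5 at CG10324 in replicates 1 and 2. The 2 octamers of CG10324 overlap each other.

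Member peaks lay close to the start and mostly just before it. The median summit was at -30 bp, that is, before the start, with quartiles of -72 and 13 bp. Summits within 50 bp of the start made up 49.04% of members, summits within 100 bp 74.1%, and 69.9% lay before the start. The replicate lists gave medians of -35 bp over 1315 peaks in replicate 1 and -34 bp over 1146 peaks in replicate 2. Signal followed position: the 617 members with a summit from -50 to -1 bp had a median signal of 214, the 252 from 0 to 49 bp 99.2, and the 35 from 200 to 249 bp 38.4. Of the 444 members of highest signal (288.8 and above), 89.2% had a summit within 100 bp, and of the 443 of lowest signal (71.5 and below), 51.0%.

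**Figure D1:**
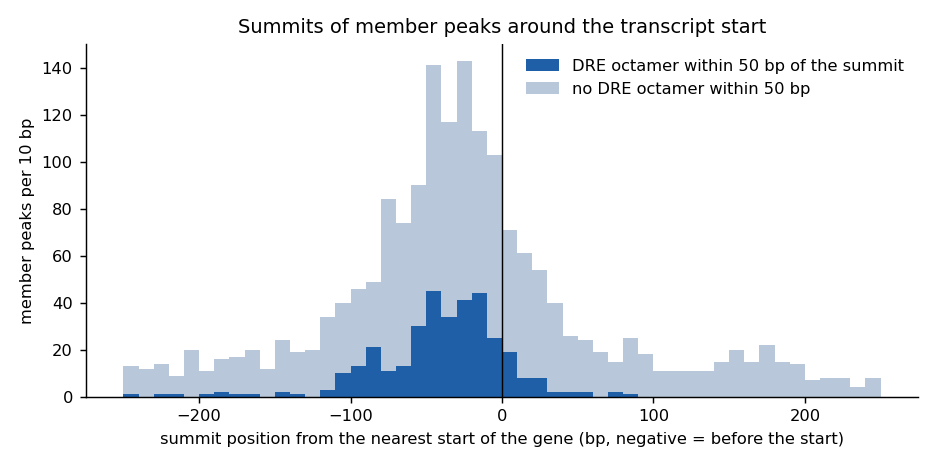
Number of member peaks per 10 bp of summit position relative to the nearest annotated start of the gene (bp, negative before the start), in the pooled list. Dark bars are members with a DRE octamer within 50 bp of the summit (345 of 1774), light bars the others, and both pile up just before the start, around the overall median of -30 bp.

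The 1774 members formed 1534 regions once overlapping peaks were merged, and 1751 of them lay near 1 single-promoter gene only. The start nearest to the summit was that of a single-promoter coding gene for 1756 members, of a noncoding gene for 17 and of another coding gene for 1. Among the genes, 1316 had 1 member summit, 237 had 2 and 3 had 3. Those with 3 were E(Pc), a subunit of a histone acetyltransferase complex, Rm62, an RNA helicase, and Set8, which methylates histone H4, with highest signals of 132.6, 88.5 and 54.7 in the pooled list.

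Single promoters had the lowest share of genes with a peak among the 3 classes of coding promoter. It was 17.7% (16.9 to 18.5) at single promoters, 56.8% (55.2 to 58.3) at divergent promoters and 36.4% (33.9 to 39.1) at alternative promoters, against 30.3% of all coding genes. A divergent promoter counts for the genes on both sides of it, and alternative promoters offer several places for a summit. The median signal of members was 120.2 (quartiles 71.6 and 288.8), that of the 1639 peaks at divergent promoters 145.5 and that of the 620 at alternative promoters 90.9. Within single promoters, 26.4% (23.8 to 29.1) of genes with an opposite-strand start at 501 to 1000 bp had a peak. The share was 19.7% (17.6 to 22.1) with such a start at 1001 to 2000 bp, 20.9% (19.4 to 22.4) at 2001 to 5000 bp and 12.5% (11.5 to 13.6) beyond that, so it did not fall at every step.

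The DRE differed most among the motifs searched. TATCGATA lay between 250 bp before and 50 bp after the 5′-most start in 411 of 1556 genes with a peak (26.4%, 24.3 to 28.7) and in 147 of 7233 genes without one (2.03%, 1.73 to 2.38), a difference of 24.4 percentage points (22.2 to 26.6). All coding promoters together held it in 9.36% of windows of the same length. Divergent promoters held it in 17.2% and alternative promoters in 6.30%, so the octamer was not particular to single promoters. The difference was 30.6 points with the peaks of replicate 1 and 31.4 points with those of replicate 2. The hexamer TATCGA was found in 57.1% of genes with a peak and 14.3% of genes without, and in 27.7% of all coding promoters. Windows of genes with a peak also held less G and C, with a median of 35.5% against 38.5% in genes without a peak, and the part of base composition in these shares was not tested.

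**Figure D2:**
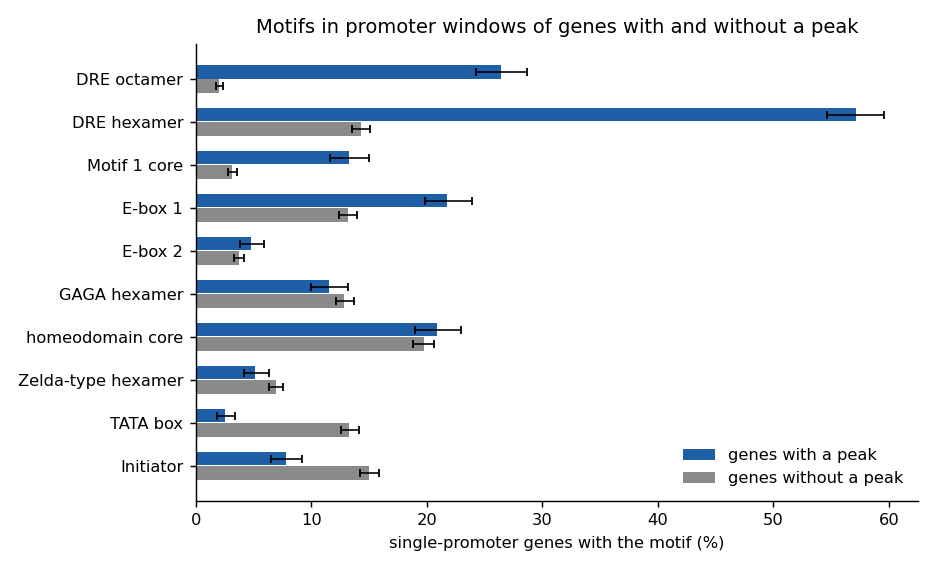
Percent of single-promoter genes with each motif in the promoter window, for the 1556 genes with a peak (blue) and the 7233 without (grey), with 95% Wilson intervals. The DRE octamer and hexamer, the Motif 1 core and E-box 1 stand higher in genes with a peak, the TATA box and the Initiator lower, and the homeodomain core is nearly level at 20.9% and 19.7%.

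The share of genes with a peak climbed with the number of matches. It was 13.9% (13.2 to 14.7) among the 8231 genes with no TATCGATA, 71.9% (67.8 to 75.7) among the 499 with 1, and 87.3% (76.0 to 93.7) among the 55 with 2. All 4 genes with 3 had a peak: Nrg, a cell adhesion molecule of neurons and epithelia (signal 1269), PolA1 (816), ref(2)P, the fly homologue of the autophagy receptor p62 (476), and ken, a zinc finger repressor (274). Replicate 1 gave 9.74%, 68.1% and 87.3% for 0, 1 and 2 octamers, and replicate 2 gave 8.65%, 62.9% and 85.5%. Signal followed the same order, with medians of 111 at genes with no octamer, 272 with 1 and 338 with 2. By hexamers, the share was 9.71% with none, 26.3% with 1, 61.7% with 2, 78.8% with 3 and 90.1% with 4 or more.

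**Figure D3:**
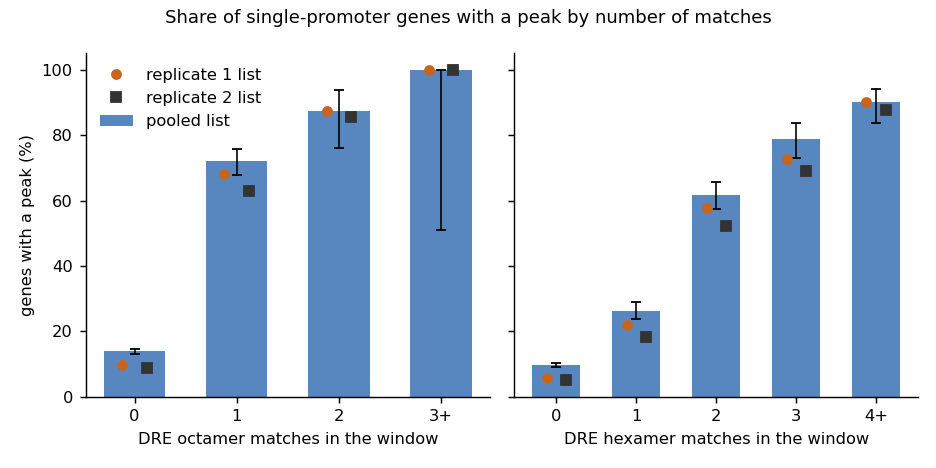
Percent of single-promoter genes with a peak by the number of DRE octamers (left) or hexamers (right) in the window. Bars are the pooled list with 95% Wilson intervals, circles the replicate 1 list and squares the replicate 2 list; all 3 lists climb from 0 to 2 octamers, where the pooled share was 87.3%.

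The share also varied with where the octamer lay. Among genes with a single TATCGATA within 500 bp on either side of the start, 264 of 344 (76.7%, 72.0 to 80.9) had a peak when it lay within the 100 bp before the start. The share was 64.6% (53 of 82) when it lay from 0 to 99 bp and 45.3% (24 of 53) from -200 to -101 bp. It was 47.5% (19 of 40) from -300 to -201 bp and 17.9% (5 of 28) from -500 to -401 bp. Further downstream, 8 of 13 genes with the octamer from 100 to 199 bp had a peak, and 1 of 11 from 200 to 299 bp. A summit had to lie within 250 bp of a start to count, so a peak at an octamer further out was left out. How much this rule lowered the shares at the far positions was not tested, and these shares do not show how often such octamers had a peak. At the peaks themselves, 345 of 1774 members (19.4%, 17.7 to 21.4) had a TATCGATA within 50 bp of the summit, with a median signal of 274 against 102.0 at the other 1429 members. Ordered by signal, this share was 37.2% among the first 444 members, 30.0% among the next 444, 8.58% among the next 443 and 2.03% among the last 443. Genes that carried the octamer in the window without a peak differed in several ways from those with one: the octamer lay within the 100 bp before the start in 77.9% of the 411 with a peak and 61.2% of the 147 without, and the symbol was only a CG number in 27.0% and 51.7%.

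TAATTA, the core of many homeodomain sites, differed little between the genes. It was found in 325 of 1556 genes with a peak (20.9%) and 1426 of 7233 without (19.7%), a difference of 1.17 points (-0.99 to 3.45). It was 2.63 points (0.19 to 5.23) with the peaks of replicate 1 and 2.48 (-0.06 to 5.20) with those of replicate 2. With the window cut to 100 bp before the start, the difference turned to -2.88 points. All coding promoters held TAATTA in 20.5% of windows. Within 50 bp of a summit it was found in 89 of 1774 members (5.02%), and the median signal there was 111 against 121 at the other members.

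Some further motifs went with peaks at promoters that lacked the DRE. GGTCACAC, the core of Ohler motif 1, was found in 13.2% of genes with a peak and 3.12% of those without. It was in 7.70% of all coding promoters and in 14.5% of divergent ones. The palindrome CAGCTG, an E-box of the kind bound by basic helix-loop-helix factors, was found in 21.8% and 13.2%, and in 17.7% of all coding promoters. Of the 5619 genes with none of TATCGA, GGTCACAC and CAGCTG, 7.65% (6.99 to 8.38) had a peak. The share was 14.7% with CAGCTG alone, 29.8% with GGTCACAC alone and 41.0% with TATCGA alone. With TATCGA and GGTCACAC but no CAGCTG it was 79.2% (95 of 120; 71.1 to 85.5). Signal did not follow in the same way: its median was 87.8 at genes with GGTCACAC alone, 92.1 with CAGCTG alone and 91.3 with none, against 262 with TATCGA alone. Among all 2080 six-mers counted on both strands, TATCGA differed most (42.9 points), followed by ATCGAT and CGATAG, which overlap it. Among the genes with no TATCGA, the six-mers AAAATA (15.4 points), GGTCAC (12.8) and, lower down the order, CAGCTG (10.9) stood higher with a peak, and AACTGA, whose reverse complement holds the Initiator letters TCAGT, stood lowest at -9.21 points.

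Core motifs of regulated promoters were rarer at genes with a peak. TATAAA on the gene's strand from -45 to -15 bp was found in 2.51% of genes with a peak and 13.3% of genes without, and TCAGT from -10 to 10 bp in 7.78% and 14.99%. Across all coding promoters they were found in 8.81% and 12.2%. Of the 987 genes with TATAAA and no TATCGATA, 3.24% (2.31 to 4.54) had a peak, and 7 of the 14 genes with both. GAGAGA, a site of GAGA factor, differed by -1.37 points (-3.06 to 0.47) in the pooled list, by -4.24 points in replicate 1 and by -2.75 points in replicate 2, with 12.3% of all coding promoters. CACGTG, a second E-box, differed by 1.01 points (-0.05 to 2.25), and CAGGTA, the core of sites of the early embryonic activator Zelda, by -1.80 points (-2.96 to -0.46).

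Genes with a peak were longer and less often uncharacterised. Their median length was 2764 bp (quartiles 1657 and 5574), against 1666 bp (948 and 3209) for genes without a peak. They had a median of 4 exons against 3, and 2 annotated transcripts against 1. The median 5′ untranslated region was 154 bp against 98 bp. An intronless gene was found for 8.68% of genes with a peak and 22.1% of those without, and a symbol that is only a CG number, as genes without a given name have, for 31.0% and 54.4% (difference -23.4 points, -25.9 to -20.8). The start lay inside another coding gene for 10.1% of genes with a peak and 20.9% of those without. A 5′ untranslated region was annotated for 99.9% of genes with a peak and 93.4% of those without.

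The X chromosome held a peak at 289 of 1357 single promoters (21.3%, 19.2 to 23.6), and the major autosome arms at 1263 of 7361 (17.2%, 16.3 to 18.0). TATCGATA was more frequent on the X as well, in 10.3% of its single-promoter genes against 5.56% on the arms. Among genes with the octamer, however, 62.9% (88 of 140; 54.6 to 70.4) had a peak on the X and 78.5% (321 of 409; 74.2 to 82.2) on the arms. Among genes without it, the shares were 16.5% on the X and 13.6% on the arms. Chromosome 4 had a peak at 4 of 48 genes, and the Y at 0 of 23.

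The strongest members were at genes of varied function. The highest signal was at mtSSB, the mitochondrial single-stranded DNA-binding protein (1598 pooled, 1147 and 427 in replicates 1 and 2; summit at -43 bp; gene at 3R:16204194-16205250). Creld had 1308 pooled, 872 and 432 in the replicates (2L:102380-104142), and Nrg 1269, 916 and 357 (X:8517373-8555170). Pym, which acts in recycling of the exon junction complex, had 1230, 867 and 365. The replicate lists are not on one scale: over the 1522 genes with a ranked peak in both, the median signals were 102.4 in replicate 1 and 53.6 in replicate 2. Of the 12 genes of highest signal, 7 had no TATCGATA, and each of the 12 had at least 1 TATCGA. At the lower end were Klp31E, a kinesin-like gene (39.1), CG33170 (35.3), Fur2, a furin-type protease (33.3), CG2182 (29.7), CG13937 (20.2) and lbm, a tetraspanin (4.39), of which only CG2182 passed the threshold in a replicate's own list.

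Peaks were frequent over the lists of core cell machinery, and rare over the lists of stage, tissue or stress genes, though not in each list. The machinery lists include DNA replication and mitosis genes and paralogues such as RpL10Aa and Vha100-3, so not every gene in them is used by every cell. Over 14 lists of machinery genes, 132 of 304 single-promoter genes (43.4%, 38.0 to 49.0) had a peak; over 17 lists of stage, tissue or stress genes, 23 of 794 (2.90%, 1.94 to 4.31), beside 17.7% of all single-promoter genes. The replicate lists gave 36.5% and 34.2% for the machinery and 1.39% and 1.64% for the other lists, beside 13.6% and 12.3% of all single-promoter genes. TATCGATA was found in 21.1% of the machinery genes and 0.88% of the others, TATAAA in 2.30% and 30.2%. Machinery genes with the octamer had a peak in 58 of 64 cases (90.6%, 81.0 to 95.6) and those without it in 74 of 240 (30.8%, 25.3 to 36.9); of the other lists' genes without the octamer, 20 of 787 (2.54%, 1.65 to 3.89) had one. Single lists departed from this order. In the machinery, V-ATPase subunit genes had 15.8% and mitochondrial import genes 18.2%. Of the other lists, heat shock genes had 23.5%, homeobox and Pox genes 14.8%, and glutathione and UDP-glycosyl transferase genes 11.9%. The lists were drawn by gene symbol with earlier results of these data known, and nothing follows from them about genes outside them.

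**Figure D4:**
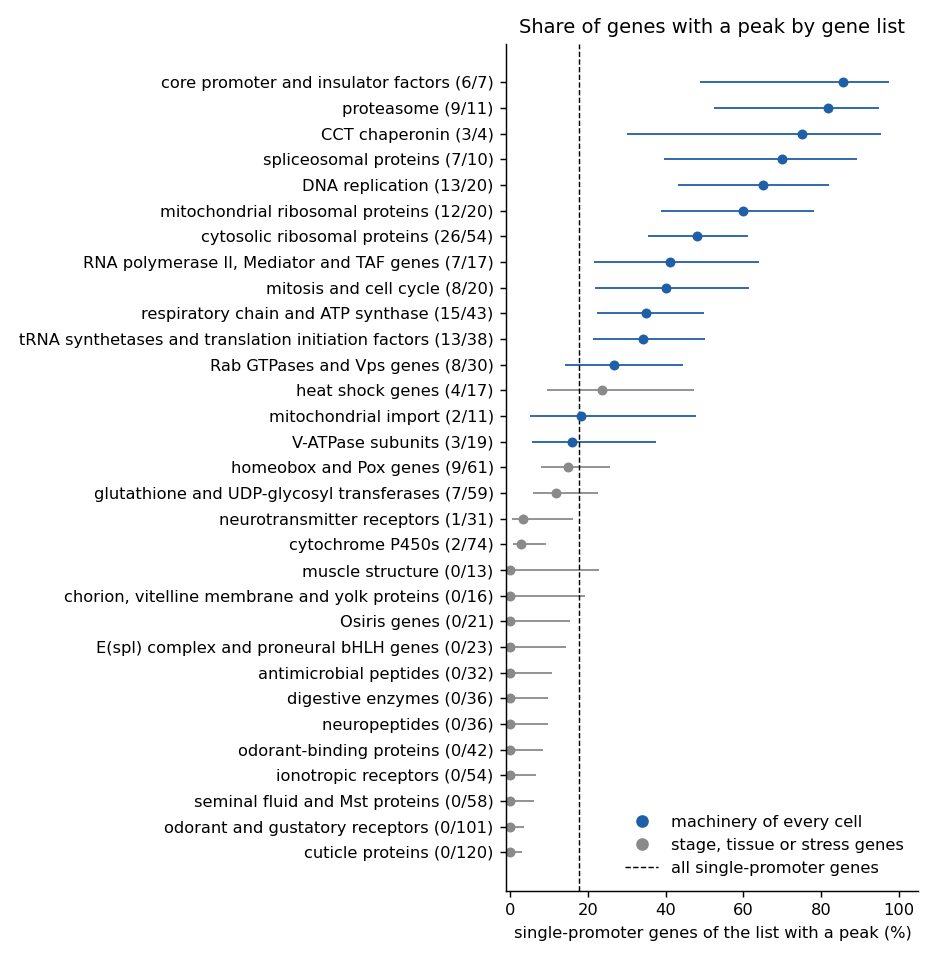
Percent of the single-promoter genes of each list with a peak in the pooled list, with 95% Wilson intervals and the number with a peak over the number in the list. Blue lists are those labelled machinery of every cell, grey lists stage, tissue or stress genes. The dashed line is the 17.7% of all single-promoter genes, and 12 grey lists stand at 0.

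Translation was represented by 26 of 54 cytosolic ribosomal protein genes (48.1%, 35.4 to 61.1), beside 17.7% of all single-promoter genes. RpS2 (874 pooled, 618 and 268 in the replicates), RpS30 (759, 533 and 222) and RpS29 (690, 484 and 198) were highest. RpL10 and RpL10Aa had no ranked peak in either replicate. Of the mitochondrial ribosomal protein genes, 12 of 20 had a peak, led by mRpL4 (803), mRpL10 (563) and mRpL3 (321), and all 7 with TATCGATA were among the 12. Of tRNA synthetase and initiation factor genes, 13 of 38 had one, with eIF3f1 (809), eIF3c (701) and eIF2alpha (356) highest, while CysRS and GluRS-m had none. In protein turnover, 9 of 11 proteasome genes had a peak. Rpn10, the ubiquitin receptor of the proteasome (680 pooled, 476 and 200.3 in the replicates), had no TATCGA in its window. Prosalpha2 had signals of 50.9 and 20.4 in the ranked lists without a pooled peak, and Rpn11, the deubiquitinase of the lid, had no ranked peak. Of the CCT chaperonin genes, which fold actin and tubulin, CCT2 (211), CCT3 (193) and CCT5 (153) had a peak and CCT8 did not.

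Of the mitochondrial respiration genes, 15 of 43 of the respiratory chain and ATP synthase had a peak (34.9%, 22.4 to 49.8), led by UQCR-14 (846) and ND-B14.5A (530), each with 4 hexamers, and ND-13B (303), with none. Of import genes, 2 of 11 had a peak (18.2%, 5.14 to 47.7), close to the 17.7% of all single-promoter genes: Tom70 (140) and Tim9b (99.8). Of V-ATPase subunit genes, 3 of 19 had one, close to the background of 17.7%: Vha16-1 (322), VhaSFD (262) and VhaPPA1-1 (68.9). Rab and Vps genes, which act in vesicle transport, had 8 of 30, with Rab19 (545), Rab35 (509) and Vps15 (491) highest. Rab1 and Rab18 had no peak in the pooled list, but Rab18 had one of signal 55.0 in the conservative thresholded list of both replicates. These gene lists also hold paralogues such as Vha100-3 and Vha100-4, neither of which had a ranked peak.

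Among genes of the nucleus, 6 of 7 core promoter and insulator factor genes had a peak, beside 17.7% of all single-promoter genes. They were led by mod(mdg4) (446 pooled, 313 and 126 in the replicates), CTCF (418, 316 and 91.6) and dwg (409, 301 and 111), and Clamp was the one without. RNA polymerase II, Mediator and TAF genes had 7 of 17, with Taf9 (442), MED14 (217) and Polr2E (122). Neither of the 2 genes of this list with TATCGATA had a peak. Spliceosomal genes had 7 of 10, with Sf3a1 (634), U2A (296) and Prp39 (257). DNA replication genes had 13 of 20, with PolA1, geminin, an inhibitor of replication licensing (348), and PCNA, the sliding clamp (310.4), while Mcm2 and Mcm3 of the replicative helicase had none. Of mitosis and cell cycle genes, 8 of 20 had one, with CycB (472), BubR1 (447) and Cdk2 (389) highest.

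No peak was found at the single promoters of 12 lists of stage or tissue genes. They were 120 cuticle protein genes, of which 77 carried TATAAA in the TATA box window, 101 odorant and gustatory receptor genes, 58 seminal fluid and Mst genes, 54 ionotropic receptor genes, 42 odorant-binding protein genes, 36 neuropeptide genes and 36 digestive enzyme genes. The others were 32 antimicrobial peptide genes, 23 genes of the E(spl) complex and proneural group, 21 Osiris genes, 16 chorion, vitelline membrane and yolk genes, and 13 genes of muscle structure. Taken as 3 counts over the total, a count of 0 of 120 allows a share of up to 2.50%, of 0 of 101 up to 2.97%, and of 0 of 13 up to 23.1%; the upper Wilson limits are 3.10%, 3.66% and 22.8%. Neurotransmitter receptors had 1 of 31, Nmdar1 (114 pooled, 75.2 and 40.2 in the replicates). Cytochrome P450 genes had 2 of 74, Cyp4p2 (94.1) and Cyp12b2 (75.4). Glutathione and UDP-glycosyl transferase genes had 7 of 59 (11.9%, 5.87 to 22.5), led by Ugt36A1 (330) and GstZ1 (226), both with TATCGATA. Heat shock genes had 4 of 17 (23.5%, 9.56 to 47.3), and both intervals held the 17.7% of all single-promoter genes. Hsp110 (894), with TATCGATA, stood apart among these from Hsp68 (79.5) and Hsp23 (73.8), which passed the threshold in neither replicate.

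Homeobox and Pox genes, which include the family of Unc-4 itself, had a peak at 9 of 61 single promoters (14.8%, 7.96 to 25.7), near the 17.7% of all single-promoter genes. The highest were tin, which specifies the heart (198 pooled, 145 and 68.0 in the replicates), bcd, the maternal anterior determinant (108, 47.9 and 59.4), and unpg (102, with a thresholded peak of 59.6 in replicate 2 only). The remaining 6 were Awh (89.01), Dll (83.4), Ptx1 (79.9), lbl (78.6), lbe (69.7) and Poxn (68.7). Of these, Awh had a thresholded peak in both replicates, Ptx1 in replicate 2 only, and Dll, lbl, lbe and Poxn in neither. None of the 9 had a TATCGA, beside 5 of the 61 genes of the list, and 1 had a TAATTA, beside 20.9% of all genes with a peak. With 9 genes, these motif counts do not set them apart. Summits of 8 of the 9 lay from -228 to -120 bp, against a median of -30 bp over all members. Of all 1774 members, 68 had a summit from -250 to -201 bp, 76 from -200 to -151 bp and 137 from -150 to -101 bp. The genes unc-4 (X:17768569-17778708) and its neighbour and paralogue OdsH (X:17791010-17814011) are both single-promoter genes, and neither had a peak. At unc-4 no ranked peak lay within 250 bp of the start in either replicate, and at OdsH 1 did in replicate 2, with a signal of 15.4. The ranked list of replicate 2 held 45920 nuclear peaks, and that of replicate 1 21280. Of the 7086 genes with neither a pooled peak nor TATCGATA, 28.2% had a ranked peak there in replicate 2, with a median signal of 13.7.

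The replicates shared most of the stronger members. Of the 1774 members, 1053 (59.4%, 57.1 to 61.6) were overlapped by at least 1 bp by a thresholded peak in both replicates, 281 in replicate 1 only, 131 in replicate 2 only and 309 (17.4%) in neither. Their median signals were 249, 91.9, 79.9 and 63.0 in that order. Among other nuclear peaks, 53.6% (51.9 to 55.4) were overlapped in both. By gene, 914 of 1556 had a peak in both replicate lists, and 38.2% of these carried TATCGATA, against 14.5% of the 249 with a peak in replicate 1 only, 10.1% of the 119 in replicate 2 only and 5.11% of the 274 in neither. GAGAGA had another order, with 7.77% of the genes of both replicates, 12.4% of replicate 1 only, 25.2% of replicate 2 only and 17.2% of neither. Over the 1522 genes with a ranked peak in both, Spearman's coefficient of signal was 0.86 and Pearson's coefficient of log2 signal 0.87, as a description over genes of the same 2 libraries.

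**Figure D5:**
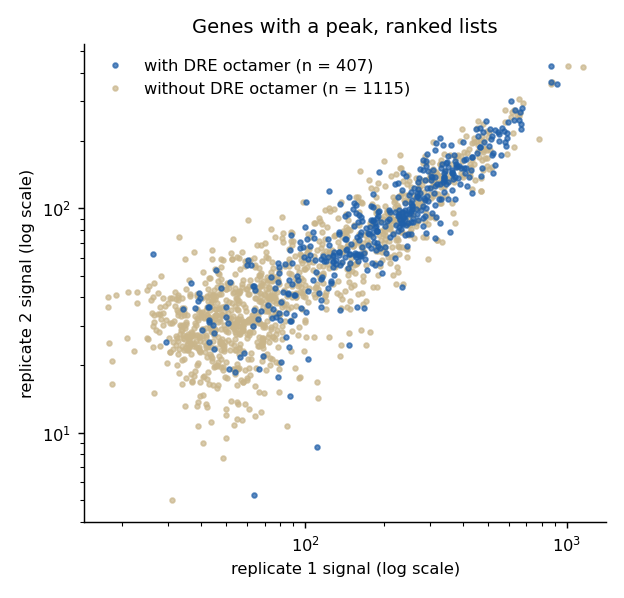
Signal in replicate 1 and replicate 2 (both log scales, authors' units, ranked lists) of the 1522 single-promoter genes with a pooled peak and a ranked peak in both replicates. Blue points carry the DRE octamer and sand points do not; the blue points lie mostly toward the upper right, with a median replicate 1 signal of 193 over all genes with the octamer, a pooled peak and a ranked peak in replicate 1, and 73.8 over those without the octamer.

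Ranked peaks below the authors' threshold were counted as well. Of the 147 genes with TATCGATA and no pooled peak, 57 (38.8%, 31.3 to 46.8) had a peak of the pooled ranked list within 250 bp, with a median signal of 50.4, against 1926 of 7086 genes without either (27.2%, 26.2 to 28.2), with a median of 29.5. The ranked list held 46847 nuclear peaks. In addition, 33 of the genes counted as without a peak had a ranked summit at an irreproducible discovery rate of 0.01 or less, the level of the thresholded list, that the thresholded list used here did not hold, with signals from 72.7 to 1133 and a median of 210.0. They included kibra (1133), a regulator of the Hippo pathway, and osa (1021), a subunit of the Brahma chromatin remodelling complex, named because they were highest. Also among them was flfl, with ranked signals of 453 and 164 in replicates 1 and 2. Both kibra and flfl had 2 octamers, and were counted above among the genes with 2 octamers and no peak. Most of the 33 lay on 3R or 2L. Of the 33, 8 carried TATCGATA and are among the 57.

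Near the limits of the rule, peaks lay on both sides of each limit. Sumo and Mtr3 lay inside with summits at 249 bp (signals 228 and 9.77), and Hsdl2 and CG32706 outside at 251 bp (162 and 99.3). The 101 members with a summit from 201 to 250 bp had a median signal of 52.2, and the 55 peaks from 251 to 300 bp 74.4. Trp1 (starts spread over 973 bp, signal 542) and CG13907 (968 bp, 93.6) were just inside the limit on starts, and Adk2 (1003 bp, 72.8) and HUWE1 (1013 bp, 389) just outside. ssp2 and Nxf3 (each 501 bp from the nearest opposite-strand start, signal 106.5) were inside the limit on opposite starts. Snap24 (500 bp, 257) and Ice2 (499 bp, 119) were outside.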

How the data were processed

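The data used were lists of ChIP-seq peaks of unc-4-eGFP embryos in dm6 coordinates. Each of the 2 replicates had a thresholded list and a ranked one, and both replicates together had 2 lists of each kind. No aligner or peak caller is named in the labels or files read here. The authors ordered and filtered the peaks by the irreproducible discovery rate (IDR), as the deposited text descriptions have it. The signal in the deposited lists was computed by the authors, and its scale is not stated. The other quantity taken from the deposited lists was the summit position, as an offset from the peak's start. In the ranked lists the authors also gave the global IDR as its -log10. Every peak of the pooled list was in 1 of the 2 pooled ranked lists at an IDR of 0.01 or less. That ranked list held 5049 such nuclear peaks and the pooled list 4899, and no source used here says why.

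Genes and starts were taken from Ensembl BDGP6.54 and sequence from RefSeq Release 6 plus ISO1 MT, and positions count from 1. The 10 motifs were searched as exact letters on both strands in a window of 301 bp from 250 bp before to 50 bp after the 5′-most start, except TATAAA and TCAGT on the gene's strand in the windows given. Symbols of 31 gene lists were matched by pattern; 2 symbols caught in error (Cyp1, a cyclophilin, and Acp65Aa, a cuticle protein matched as a seminal fluid protein) were taken out of the lists they did not belong to. Shares, medians and intervals were computed with Python 3.11.15, pandas 2.3.3, numpy 2.4.6 and statsmodels 0.14.6, and the functions were tested on simulated data. Named genes were the 12 of highest and 6 of lowest signal, up to 3 per list with and 2 without a peak, those with most summits or octamers, those at the limits of the rule, and unc-4 and OdsH; the other homeobox genes and the 2 highest genes absent from the thresholded list were named after their values were seen. The members and lists were chosen with earlier results of these data known. Not every gene that the rule names is printed. Alternatives are given in the closing section.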

Additional observations from a re-analysis of the deposited data

How the results depend on the processing

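Of 76 recomputed values, 22 moved by less than the spread between the replicate lists (for counts, by less than 1.5 times). The TATCGATA difference, 24.4 points, stayed positive throughout and the length ratio, 1.66, above 1. TAATTA turned round in a narrow motif window. Values below follow the order: share with a peak in percent, TATCGATA points, TAATTA points, median summit in bp, signal ratio to other nuclear peaks, length ratio; those that did not move are left out.

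The conservative list gave 16.6, 26.0, 2.13 and -32. The 1000 peaks of highest signal, with 427 members, gave 4.94, 40.3, 1.83, -44, 1.01 and 1.69. Summits within 100 bp gave 14.9, 26.2, 1.58, -27, 1.66 and 1.57, and within 500 bp 19.0, 23.5, 1.75, -35 and, for length, 1.65. Starts within 100 bp gave 16.4, 26.1, 1.56, -32 and, for length, 1.70, and no opposite start within 1 kb 16.5, 23.4, 0.78, -29 and, for length, 1.68. Motifs from 100 bp before the start gave 21.8 points for TATCGATA and -2.88 for TAATTA; the cause was not tested. The hexamer gave 42.9 points. With the list of 1 replicate only, the ranges were 12.3 to 13.6% of genes, 1146 to 1315 members, 30.6 to 31.4 points, 2.48 to 2.63 points, -35 to -34 bp, a signal ratio of 1.17 to 1.25 and a length ratio of 1.63 to 1.64. Members overlapped in both replicates were 40.1% at 50% reciprocal overlap and 50.3% with summits within 100 bp.

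Settings chosen after seeing the data were genes with an annotated 5′ untranslated region (18.7% with a peak, TAATTA 2.05 points, length ratio 1.62) and the ranked pooled list at an IDR of 0.01 or less (TAATTA 0.88 points, summit -31 bp, length ratio 1.68). No paired analysis was possible because there was 1 group. Depth is unknown, so which weak peaks a deeper library would add cannot be said, and the starts were annotated, not measured in these embryos.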
